A study of Mus musculus with 9 samples.

Results

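Matrix metalloproteinases (MMPs), the ADAM and ADAMTS proteases and the tissue inhibitors of metalloproteinases (TIMPs) were followed in all 9 RNA-seq libraries of MCEC, an established line derived from mouse cardiac endothelium. The members were every protein-coding gene whose symbol is Mmp, Adam or Adamts followed by a number, or Timp followed by a digit. This gave 79 genes of the 55487 in the count table: 22 Mmp, 34 Adam, 19 Adamts and 4 Timp genes. Poly-A RNA was sequenced from 3 groups of 3 libraries: wild-type MCEC (WT), MCEC with Zbtb46 knocked down (KD) and MCEC with enforced Zbtb46 overexpression (OE). Zbtb46 encodes a BTB zinc finger transcription factor. The labels give neither the construct used for knockdown or overexpression nor the number of clones, and the WT cells are not described as carrying a control vector. They also do not say whether the 3 libraries of a group came from separate cultures, so p-values measure only the spread between these samples.

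Metalloproteases with a zinc ion in the active site cut proteins outside the cell and at its surface. Secreted and membrane-bound MMPs cut collagens, basement membrane and other matrix proteins. ADAMs sit in the cell membrane and release the outer parts of receptors, adhesion molecules and growth factors, while ADAMTS proteases are secreted and trim procollagens or cut proteoglycans. TIMPs bind the active site and block it. In blood vessels this system is known for basement membrane remodelling during sprouting and for the shedding of Notch, cadherins and leukocyte adhesion molecules.

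The targeted gene differed in the direction of the labels, by far in OE but only slightly in KD. Zbtb46 stood at 13.3, 14.4 and 13.2 CPM in WT, 11.7, 11.4 and 10.7 in KD and 192, 189 and 194 in OE. Each KD library lay under each WT library, with a log2 fold change of -0.28 (SE 0.05, adjusted p = 0.00144), and OE lay far above both at 3.81 (SE 0.04, adjusted p = 3.22e-21), both in edgeR's quasi-likelihood test, with p adjusted by Benjamini-Hochberg over 16955 genes. CPM stands for counts after scaling every library to the same size. Total counts per library ran from 39491828 to 55745849. Ribosomal RNA took 7.44% to 17.3% of the counts in WT, 9.55% to 12.0% in KD and 14.4% to 18.2% in OE. The endothelial label was only partly borne by its markers: 5 of 14 were above 1 CPM in WT and KD and 4 in OE, chiefly Eng and Mcam. Pecam1, Cdh5, Tie1, Vwf, Emcn, Cldn5, Erg and Robo4 were at or near 0 in every group. The summed endothelial markers came to 158.9 to 174.8 CPM in WT, 138.1 to 146.3 in KD and 119.4 to 127.6 in OE. Of 10 fibroblast and mural markers, 7 were above 1 CPM in every group, with sums of 8133 to 9008 CPM in WT, 8085 to 8211 in KD and 5099 to 5209 in OE, carried mostly by Col1a1 and Col3a1. This label too was only partly borne. Lum, Tagln and Col1a2 were below 1 CPM in every group, with WT means of 0.023, 0.44 and 0.61 CPM, beside 5259 for Col1a1. Acta2 and Pdgfrb had WT means of only 7.7 and 3.5 CPM. The leukocyte, cardiomyocyte and epithelial markers above 1 CPM numbered 1 of 8, 0 of 6 and 1 of 4 in WT, and 1, 1 and 1 in OE.

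A small set of members carried most of the expression. On a scale that allows genes to be compared, CPM per kb of exon, Mmp2, the gelatinase that cuts basement membrane collagen, led in WT at 140.3 ± 11.7 CPM per kb (SD, n = 3). Timp2 followed at 118 ± 2.44 CPM per kb and Adam10, the main sheddase of Notch receptors, at 86.6 ± 5.89 CPM per kb. Timp1 at 65.7 ± 2.63 CPM per kb, Adam9 at 63.5 ± 2.21 CPM per kb and Timp3 at 56.7 ± 4.31 CPM per kb came next; Timp1 and Adam9 could not be ordered beyond their spread. A clear step down separated these from Adam15, Adamts1 and Mmp14, whose WT levels per length lay at 19.1 ± 1.05 CPM per kb, 18.4 ± 1.23 CPM per kb and 17.2 ± 0.318 CPM per kb. In all, 21 members reached 1 CPM per kb in at least 1 group.

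**Figure D1:**
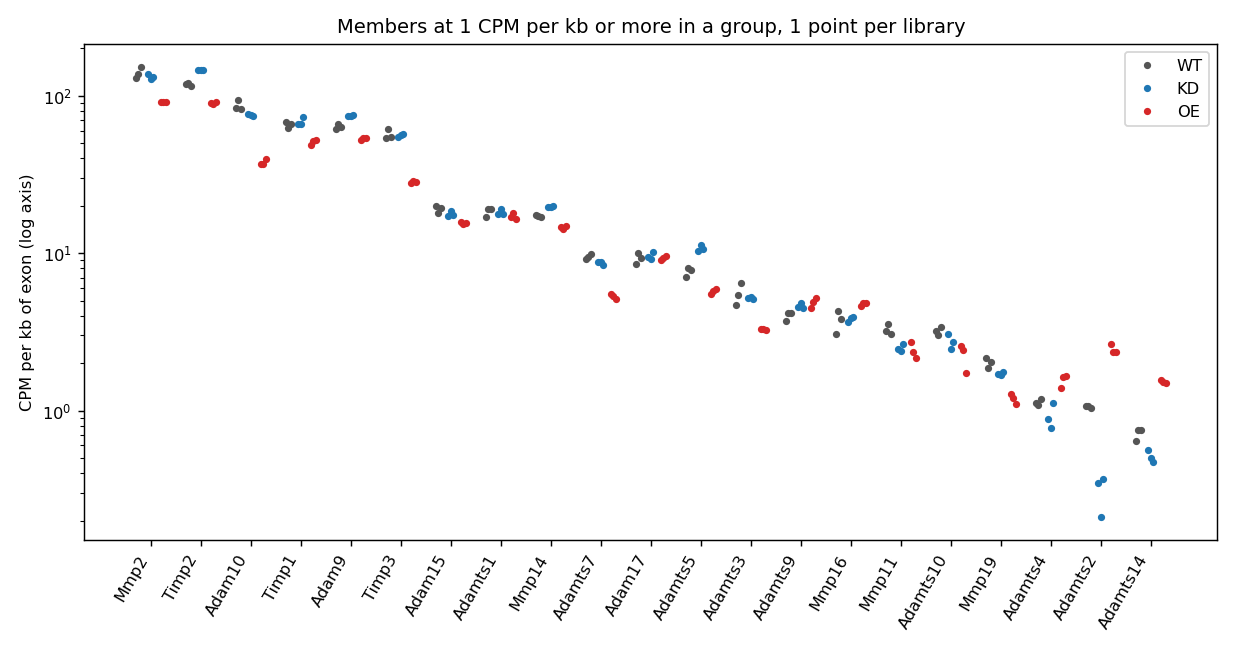
Level per length of the 21 members that reached 1 CPM per kb of exon in a group, on a log axis, with 1 point per library (3 WT, 3 KD and 3 OE) and genes ordered by their WT mean. Mmp2, Timp2, Adam10, Timp1, Adam9 and Timp3 formed the upper step, and the OE points of Adam10 and Timp3 sat well below their WT and KD points.

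Of the 79 members, 41 passed the filter on low counts and were tested: 14 Mmp, 13 Adam, 11 Adamts and 3 Timp genes. The 38 others had at most 21 counts in any library. Among them, 15 had 0 counts in every library, Timp4 and Mmp7 included, which allows a level of up to 0.076 CPM in the shallowest library and 0.0538 CPM in the deepest (3 counts). Such limits use unscaled library totals, so they differ slightly from the scale of the other CPM values. The untested Adam genes were mostly those of the reproductive tract, and the untested Mmp genes were Mmp1b, Mmp7, Mmp8, Mmp12, Mmp20, Mmp21, Mmp25 and Mmp27. A gene that passed the filter only through the group in which it was high would differ between groups for that reason, so the counts below describe the tested members and not the families.

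In KD against WT, 13 of the 41 tested members passed an adjusted p of 0.05, where 21.3% of all tested genes did. Of these, 6 were higher (background 11%) and 7 lower (background 10.4%). Among the latter, 4 were at least 2-fold lower (background 2.64% for a 2-fold difference either way). The 2.64% counts both directions, 92 genes higher and 355 lower of 16955, so 2-fold calls in KD were mostly lower over all genes too. In OE against WT, 27 members passed against a background of 36.4%. Of these, 7 were higher (background 17%) and 20 lower (background 19.5%), of which 3 and 5 by at least 2-fold (background 5.34%). The 5.34% counts both directions, 342 genes higher and 564 lower of 16955. The direct comparison of OE with KD, whose fold changes do not use WT although the WT libraries enter the filter and the estimate of spread, called 20 members against a background of 41.5%. In it 6 were higher (background 19.4%) and 14 lower (background 22.1%), of which 4 and 1 by at least 2-fold (background 7.49%). The 7.49% again counts both directions, 631 genes higher and 639 lower. The median log2 fold change of the tested members was -0.13 for KD, -0.30 for OE and -0.26 between OE and KD. The same medians over all tested genes were -0.0022, 0.0020 and 0.011. In OE, 8 of 14 tested Mmp genes, 6 of 13 Adam genes, 10 of 11 Adamts genes and 3 of 3 Timp genes differed from WT. Scaling by library totals alone left 10 members in KD, 4 higher and 6 lower, and 25 in OE, 5 higher and 20 lower. Under that scaling the share of called genes that were higher fell from 51.4% to 35.8% over all genes in KD and from 46.6% to 31.6% in OE. With upper-quartile factors that share in OE against KD was 57.6% in place of 46.8%. The KD and OE comparisons share the WT libraries, so their values stand side by side below. The direct test of OE against KD is given for most of the genes named.

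**Figure D2:**
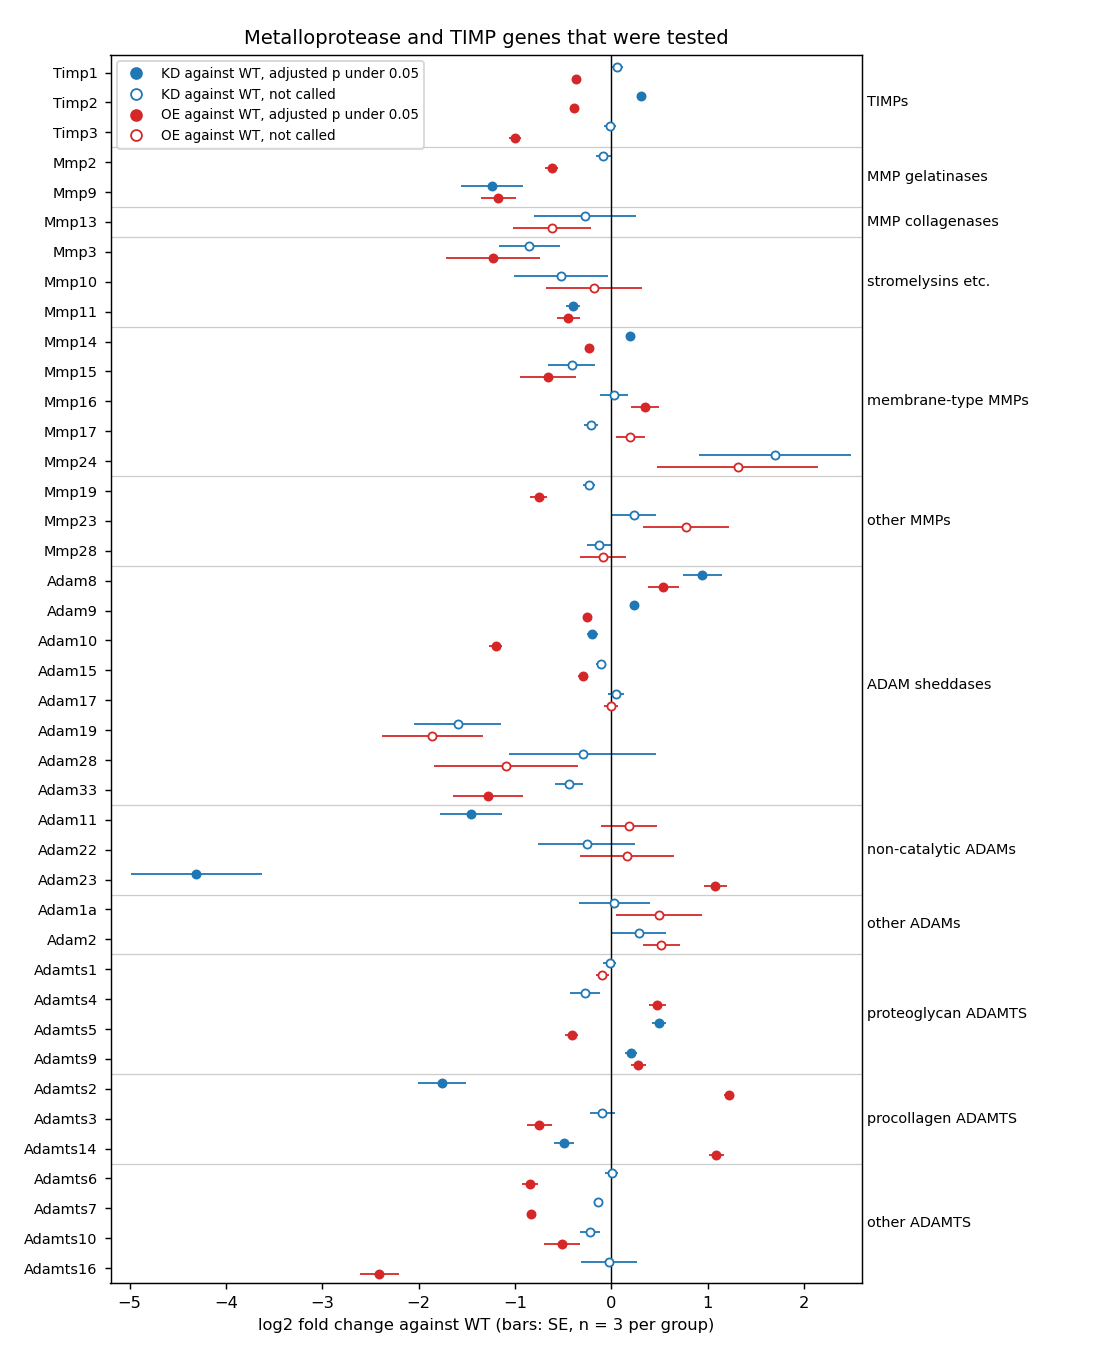
Log2 fold change (x axis) of the 41 tested members in KD against WT (blue) and OE against WT (red), grouped by role, with bars of 1 SE from 3 libraries per group. Filled points had an adjusted p under 0.05 and open points did not; Adam23 and Adamts2 lay to the left of 0 in KD and to the right in OE, and Adam10, Timp3 and Adamts16 lay to the left in OE.

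The members on which the account turns are shown first by the sequence around their start sites. Adamts2, Adamts14 and Adam23 lay below WT in KD and above it in OE, and Adam10 and Timp3 were the abundant members that fell furthest in OE; they were picked for display after their values were seen. Each window runs 5′ to 3′ on the gene's own strand from 250 bases before to 50 bases after the RefSeq start on GRCm38.p6. Capitals mark a GC box (GGGCGG or its reverse complement, the motif bound by Sp factors) or a CCAAT box (CCAAT or its reverse complement), where neighbouring matches can run together.
Adamts2 (ENSMUSG00000036545), chr11:50601835-50602134, plus strand: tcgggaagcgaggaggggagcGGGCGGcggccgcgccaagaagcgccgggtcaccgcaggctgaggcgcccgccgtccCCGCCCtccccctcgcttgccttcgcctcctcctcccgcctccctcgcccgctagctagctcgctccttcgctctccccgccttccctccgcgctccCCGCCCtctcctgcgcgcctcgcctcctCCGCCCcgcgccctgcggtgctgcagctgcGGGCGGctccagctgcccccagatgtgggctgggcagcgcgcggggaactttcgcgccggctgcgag
Adamts14 (ENSMUSG00000059901), chr10:61273370-61273669, minus strand: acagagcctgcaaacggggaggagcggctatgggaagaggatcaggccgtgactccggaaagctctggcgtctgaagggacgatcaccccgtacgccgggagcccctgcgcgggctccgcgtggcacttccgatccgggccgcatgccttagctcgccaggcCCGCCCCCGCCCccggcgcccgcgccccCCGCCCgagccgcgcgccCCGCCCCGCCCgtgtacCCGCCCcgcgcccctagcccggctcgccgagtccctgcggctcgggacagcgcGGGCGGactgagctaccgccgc
Adam23 (ENSMUSG00000025964), chr1:63445641-63445940, plus strand: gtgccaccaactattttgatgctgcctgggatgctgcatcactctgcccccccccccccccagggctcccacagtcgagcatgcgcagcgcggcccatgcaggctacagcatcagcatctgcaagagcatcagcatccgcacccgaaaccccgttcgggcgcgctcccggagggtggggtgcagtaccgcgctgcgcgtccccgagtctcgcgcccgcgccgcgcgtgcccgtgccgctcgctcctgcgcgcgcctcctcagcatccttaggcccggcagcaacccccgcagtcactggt
Adam10 (ENSMUSG00000054693), chr9:70678732-70679031, plus strand: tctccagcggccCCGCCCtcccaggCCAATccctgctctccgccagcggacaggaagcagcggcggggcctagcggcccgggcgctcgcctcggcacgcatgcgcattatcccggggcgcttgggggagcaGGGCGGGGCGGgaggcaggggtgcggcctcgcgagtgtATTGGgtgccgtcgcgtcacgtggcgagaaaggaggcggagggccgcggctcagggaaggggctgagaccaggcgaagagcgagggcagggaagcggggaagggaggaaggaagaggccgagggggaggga
Timp3 (ENSMUSG00000020044), chr10:86300162-86300461, plus strand: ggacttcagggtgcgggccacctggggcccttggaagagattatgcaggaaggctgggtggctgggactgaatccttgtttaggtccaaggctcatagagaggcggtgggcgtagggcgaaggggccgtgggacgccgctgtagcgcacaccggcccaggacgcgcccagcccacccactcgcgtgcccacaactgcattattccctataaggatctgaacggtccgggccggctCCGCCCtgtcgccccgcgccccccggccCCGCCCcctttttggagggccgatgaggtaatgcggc

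These windows were rich in G and C, at 77.3% for Adamts2, 76.7% for Adamts14, 70.0% for Adam23, 73.3% for Adam10 and 67.0% for Timp3, where the median over all windows was 52.7%. Adamts14 held 7 GC boxes, Adamts2 held 5, Adam10 held 3 with 2 CCAAT boxes, and Timp3 held 2, while the Adam23 window held none of the motifs searched. A search on both strands for the AP-1 motif TGANTCA and the TATA box TATAAA found neither in these 5 windows. Over all 32841 RefSeq windows, 35.7% held a GC box, 37.4% a CCAAT box, 7.81% the AP-1 motif and 13.6% a TATA box. Of the 79 members, 49 had a RefSeq window, some with several, 54 windows in all, of which 23 held a GC box, 21 a CCAAT box, 12 the AP-1 motif and 14 a TATA box. The AP-1 matches among Mmp genes were in the windows of Mmp1b, Mmp3, Mmp7, Mmp10, Mmp13 and Mmp20, which lie near each other on chromosome 9. A match describes letters in a window and shows no binding.

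The 3 tested inhibitors fell in OE, and of these Timp2 alone passed the test in KD, as higher. Timp3, which stays bound to the matrix and also blocks ADAM and ADAMTS proteases, stood at 436, 502 and 448 CPM in WT, 444, 459.8 and 465 in KD and 226, 235 and 232 in OE. Every OE library lay far under all WT and KD libraries, which overlapped each other. OE was 2-fold lower than WT for Timp3, with a log2 difference of -1.0 (SE 0.06, adjusted p = 8.32e-13) (edgeR's quasi-likelihood test, Benjamini-Hochberg adjusted). Against KD it was -0.98 (SE 0.03, adjusted p = 6.3e-13), and in KD against WT it was -0.02 (adjusted p = 0.857). In bulk RNA, fewer cells of a kind that expresses a gene and less of its RNA per cell cannot be told apart, here and for all members below.

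Timp2, which blocks MMPs and at the cell surface helps Mmp14 to activate Mmp2, stood at 462, 468 and 449 CPM in WT, 564, 568 and 571 in KD and 348, 347 and 355 in OE. The groups did not overlap: KD was highest, WT intermediate and OE lowest. Its log2 fold change was 0.31 (SE 0.02, adjusted p = 3.53e-06) in KD, and -0.39 (SE 0.02, adjusted p = 3.04e-08) in OE against WT, and -0.70 (SE 0.01, adjusted p = 2.41e-12) in OE against KD. Timp1, a secreted inhibitor, stood at 60.4, 55.8 and 58.8 CPM in WT, 58.8, 58.6 and 65 in KD and 43.5, 45.7 and 46.7 in OE, so that only OE lay apart. Its difference was -0.36 (adjusted p = 2.39e-05) in OE against WT, -0.42 (adjusted p = 2.18e-06) in OE against KD and 0.06 (adjusted p = 0.492) in KD against WT. Timp1 overlaps the neuronal gene Syn1 on the opposite strand, with 0 exon bases shared.

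Among the gelatinases, Mmp2 was abundant and lower in OE. Its libraries stood at 439.6, 462 and 516 CPM in WT, 465, 433 and 441 in KD and 306, 308 and 308 in OE, and the OE libraries, close to each other, lay below all the rest. The log2 fold change was -0.62 (SE 0.07, adjusted p = 3.32e-09) in OE relative to WT and -0.54 (SE 0.03, adjusted p = 1.62e-08) in OE against KD, while KD against WT gave a log2 fold change of -0.08 (adjusted p = 0.266). Mmp9, the other gelatinase and best known from leukocytes, was hardly expressed, with 28, 31 and 28 counts in WT, 8, 14 and 14 in KD and 11, 16 and 12 in OE. It passed the test as lower in both against WT, at -1.24 (adjusted p = 0.0466) in KD and -1.17 (adjusted p = 0.0375) in OE, and did not pass in OE against KD. Neither call was firm: the KD call was lost when any 1 library other than WT replicate 2 was left out (adjusted p 0.0538 to 0.188). It was also lost in the fit with the replicate number as a block (adjusted p = 0.0602), with library totals alone, with no count filter, with window medians removed and in a fit of KD and WT only. The OE call was lost without WT replicate 1 (adjusted p = 0.118) or 3 (0.078) and without OE replicate 1 (0.11), 2 (0.0595) or 3 (0.0874), and with no count filter (0.085).

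The membrane-type enzymes did not share a direction. Mmp14, which cuts collagen at the cell surface and activates Mmp2, stood at 105, 102 and 101 CPM in WT, 117, 116 and 118 in KD and 87.2, 85.3 and 89.2 in OE. KD lay above WT and OE below it, with no overlap. Its log2 fold change was 0.19 (SE 0.02, adjusted p = 0.00198) in KD, and -0.23 (SE 0.02, adjusted p = 0.000132) in OE against WT, and -0.43 (SE 0.02, adjusted p = 3.64e-08) in OE against KD; the KD call was lost with library totals alone (adjusted p = 0.102). Mmp16, a related membrane-anchored enzyme, stood at 26.5, 37.1 and 33.2 CPM in WT, 31.6, 33.5 and 34 in KD and 40.2, 41.9 and 41.7 in OE and was highest in OE. It rose, with a log2 fold change of 0.35 (SE 0.14, adjusted p = 0.00496) in OE relative to WT and 0.32 (SE 0.04, adjusted p = 0.00726) against KD, and KD against WT gave a log2 fold change of 0.03 (adjusted p = 0.882). The OE against WT value was 0.23 without WT replicate 1, the lowest WT library, and the call was lost with library totals alone (adjusted p = 0.0534). Mmp15, outside the naming rule, fell in OE against WT (log2 fold change -0.66, adjusted p = 0.0387) although its libraries overlapped. It did not pass in KD against WT or in OE against KD. Mmp17 and Mmp24 did not pass in any comparison.

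Among the remaining MMPs, Mmp11 and Mmp19 were lower in OE. Mmp19, a secreted enzyme that cuts basement membrane proteins, stood at 7.65, 6.62 and 7.16 CPM in WT, 6, 5.95 and 6.25 in KD and 4.52, 4.26 and 3.87 in OE, and the OE libraries lay below the other 6. It fell, with a log2 fold change of -0.76 (SE 0.09, adjusted p = 3.85e-05) in OE relative to WT and -0.52 (SE 0.07, adjusted p = 0.00139) against KD, with -0.23 (adjusted p = 0.184) in KD against WT. Mmp11, or stromelysin-3, which furin activates inside the cell, stood at 8.94, 9.91 and 8.57 CPM in WT, 6.83, 6.68 and 7.33 in KD and 7.59, 6.56 and 5.96 in OE. All WT libraries lay above all others. Its values were -0.40 (SE 0.07, adjusted p = 0.0152) in KD, and -0.45 (SE 0.12, adjusted p = 0.00351) in OE against WT, and -0.05 (adjusted p = 0.759) between OE and KD. The KD call of Mmp11 was lost without WT replicate 2 (adjusted p = 0.0506), KD replicate 1 (0.0601) or KD replicate 2 (0.0615). Mmp3, or stromelysin-1, was near the lower limit at 33, 103 and 52 counts in WT, 32, 24 and 42 in KD and 30, 35 and 12 in OE. It fell in OE (log2 fold change -1.23, adjusted p = 0.00982). That call was lost without WT replicate 2 (adjusted p = 0.0773) or OE replicate 3 (0.0523). KD gave a log2 fold change of -0.85 (adjusted p = 0.0907). With window medians removed, Mmp3 passed as lower in KD too (adjusted p = 0.0474), beside -1.02 (adjusted p = 0.0296) in OE. OE against KD did not pass, at -0.38 (adjusted p = 0.465), or -0.02 (adjusted p = 0.969) with window medians removed. Mmp10, Mmp13, Mmp23 and Mmp28 did not pass in any comparison. Mmp11 shares 155 exon bases with Chchd10 and Mmp19 shares 789 with Tmem198b; strand use in counting is not given in the sources used here, so reads of such pairs may be mixed.

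Summed per family on the scale of CPM per kb, WT had a TIMP level of 240 ± 4.01 (SD, n = 3), KD of 270 ± 5.92 and OE of 169 ± 3.12. The MMP level came to 169 ± 11.8 (WT), 162 ± 4.64 (KD) and 116 ± 0.174 (OE), and Mmp2 made up 82.9%, 81.7% and 78.4%. OE thus lay lowest for both families, and the KD libraries lay above WT for TIMPs only. The ADAM sum, at 180 ± 7.63 (WT), 179 ± 0.367 (KD) and 117 ± 2.56 (OE), came almost wholly from Adam9, Adam10, Adam15 and Adam17 (99.3%, 99.3% and 98.6%). The ADAMTS sum was 51.7 ± 3.13, 52.4 ± 1.15 and 44.5 ± 1.04. As a description with no test, the TIMP sum over the MMP sum was 1.51, 1.47 and 1.30 in the WT libraries, 1.59, 1.70 and 1.72 in KD and 1.43, 1.46 and 1.48 in OE. KD lay above the other groups, and WT and OE overlapped. On CPM not divided by length the mean ratio was 1.55 for WT, 1.76 for KD and 1.38 for OE, so the order of WT and OE depended on the scale. Within the TIMP sum, Timp3 made up 23.6% (WT), 20.7% (KD) and 16.8% (OE), while Timp2 made up 49.1%, 53.9% and 53.1%. These are ratios of transcript levels and not of protein or activity.

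**Figure D3:**
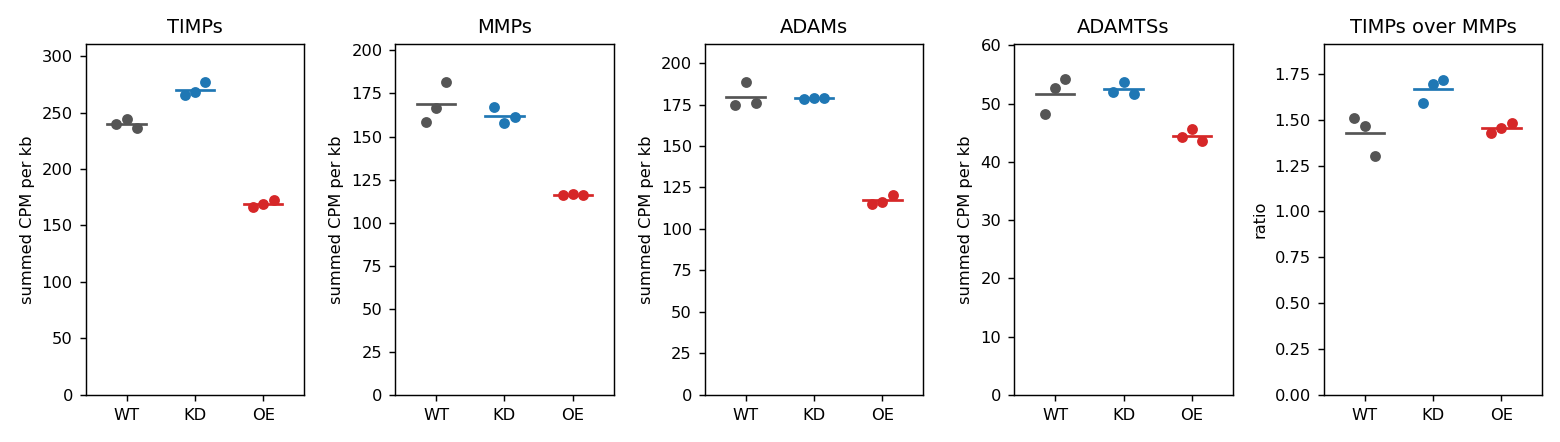
Summed level (CPM per kb of exon) of the TIMP, MMP, ADAM and ADAMTS members and the ratio of the TIMP to the MMP sum, with 1 point per library, a line at the mean of 3 libraries and all axes from 0. The OE points lay below the WT and KD points in the 4 sums, and the KD ratio points lay above the others.

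The abundant sheddases differed among themselves. Adam10, which cuts Notch receptors and cadherins, stood at 411, 459 and 407 CPM in WT, 374, 373 and 366 in KD and 179.9, 181 and 196 in OE. The groups did not overlap, with WT highest, KD a little lower and OE far lower. OE was 2.3-fold lower than WT for Adam10, with a log2 difference of -1.20 (SE 0.07, adjusted p = 6.17e-14) (edgeR's quasi-likelihood test, Benjamini-Hochberg adjusted). Against KD it was -1.0 (SE 0.04, adjusted p = 5.9e-13), and in KD against WT -0.20 (SE 0.06, adjusted p = 0.00415). The 157 tested genes of the same 20 Mb window of chromosome 9 had median log2 differences of -0.34 between OE and WT, -0.46 between OE and KD and 0.11 between KD and WT. With such window medians removed in every library, Adam10 was still called, at -0.87, -0.55 and -0.32 in these comparisons.

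Adam9, which sheds growth factors such as heparin-binding EGF-like growth factor, was ordered across the groups as Timp2 was. It stood at 252, 271 and 261 CPM in WT, 305, 307 and 311 in KD and 214, 220.2 and 221 in OE. KD was highest and OE lowest, with no overlap. Its log2 fold change was 0.23 (SE 0.03, adjusted p = 0.00017) in KD, and -0.26 (SE 0.03, adjusted p = 2.25e-05) in OE against WT, and -0.49 (SE 0.02, adjusted p = 1.74e-09) in OE against KD. Adam15, known from endothelial junctions, stood at 123, 110.1 and 119 CPM in WT, 106, 113 and 107 in KD and 96.8, 93.4 and 96.2 in OE. It fell in OE, with a log2 fold change of -0.30 (adjusted p = 3.99e-05) against WT and -0.19 (adjusted p = 0.00263) against KD; the KD value, -0.11 (adjusted p = 0.123), passed only without WT replicate 2 (-0.15). Adam17, which releases tumour necrosis factor and L-selectin, did not pass in any comparison and its libraries overlapped, at 61.4, 72.1 and 66.2 CPM in WT, 67.9, 65.9 and 73 in KD and 64.5, 66.5 and 68.6 in OE. Its differences were 0.05 (adjusted p = 0.631) in KD and -0.00 (adjusted p = 0.978) in OE against WT. Adam17 shares 311 exon bases with Iah1 on the opposite strand.

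The weakly expressed sheddases gave 2 more calls. Adam8, best known from leukocytes and outside the naming rule, stood at 1.53, 2 and 2.06 CPM in WT, 3.91, 2.86 and 4.01 in KD and 3.07, 2.54 and 2.56 in OE. All WT libraries lay lowest. It rose in KD (log2 fold change 0.94, adjusted p = 0.000803) and in OE (log2 fold change 0.54, adjusted p = 0.0301), with -0.41 (adjusted p = 0.0777) between the modified lines; the leukocyte markers stood at sums of 4.19 to 4.67 CPM in WT, 5.20 to 5.75 in KD and 3.20 to 4.56 in OE, mostly Cd68, and their part in the result was not tested. Adam33, a mesenchymal sheddase, had 26, 51 and 39 counts in WT and 21, 18 and 8 in OE and fell in OE against WT, with a log2 fold change of -1.28 (adjusted p = 0.0105), a call lost without OE replicate 3 (adjusted p = 0.0565). It did not pass in KD against WT or in OE against KD. Adam19 and Adam28 did not pass, and Adam12 was not tested, with 0 to 3 counts in WT and KD libraries and 6 to 21 in OE.

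Of the ADAMs that lack a working catalytic site and are known as neural adhesion proteins and receptors for LGI proteins, Adam23 differed most. It had 66, 104 and 61 counts in the WT libraries, 0, 3 and 8 in KD and 154, 178 and 152 in OE, or 1.74, 1.75 and 1.36 CPM in WT, 0.0, 0.0754 and 0.164 in KD and 3.28, 3.59 and 3.38 in OE. The KD libraries were at or near 0, and the OE libraries lay above all WT libraries. The 0 counts in KD replicate 1 allow up to 0.0608 CPM on its unscaled library total. The fitted log2 fold change was -4.31 (SE 0.68, adjusted p = 2.57e-07) in KD, and 1.08 (SE 0.12, adjusted p = 0.00223) in OE against WT, and 5.38 (SE 0.67, adjusted p = 5.23e-10) in OE against KD; the fits that involve KD depend on the prior count at so few reads. Adam11 stood at 1.16, 2 and 2.08 CPM in WT, 0.735, 0.477 and 0.697 in KD and 2.17, 2.16 and 1.67 in OE. KD lay below the other groups. It fell in KD, with a log2 fold change of -1.45 (SE 0.32, adjusted p = 0.000498) and was higher in OE than in KD by 1.64 (SE 0.22, adjusted p = 4.13e-05), while OE and WT overlapped (log2 fold change 0.18, adjusted p = 0.611). Adam22 did not pass in any comparison.

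The procollagen N-proteinases, which remove the amino-terminal propeptide of fibrillar procollagens, split. Adamts2 stood at 9.91, 9.93 and 9.67 CPM in WT, 3.24, 1.96 and 3.42 in KD and 24.6, 22.1 and 22 in OE. The groups were far apart in the order KD, WT, OE. Adamts2 was 3.38-fold lower in KD than in WT, 2.33-fold higher in OE than in WT and 7.87-fold higher in OE than in KD. Its log2 fold changes in edgeR's quasi-likelihood test, Benjamini-Hochberg adjusted, were -1.76 (SE 0.25, adjusted p = 2.64e-08), 1.22 (SE 0.05, adjusted p = 9.68e-08) and 2.98 (SE 0.26, adjusted p = 9.53e-13). Adamts14, the closest relative in function, kept the same order at 3.35, 3.92 and 3.89 CPM in WT, 2.9, 2.59 and 2.46 in KD and 8.14, 7.88 and 7.78 in OE, again without overlap. Its log2 fold changes were -0.49 (SE 0.10, adjusted p = 0.0138) in KD, and 1.09 (SE 0.08, adjusted p = 8.92e-07) in OE against WT, and 1.58 (SE 0.07, adjusted p = 4.01e-09) in OE against KD; the KD call was lost without KD replicate 3 (adjusted p = 0.0649). Adamts3, the third of the group, which also processes VEGF-C, was the most expressed of these in WT at 5.51 ± 0.857 CPM per kb beside 1.05 ± 0.0159 CPM per kb for Adamts2 and 0.716 ± 0.0618 CPM per kb for Adamts14. It stood at 25.6, 29.4 and 34.9 CPM in WT, 28, 28.6 and 27.6 in KD and 17.8, 17.9 and 17.8 in OE and fell in OE, with a log2 fold change of -0.75 (SE 0.13, adjusted p = 6.16e-07) against WT and -0.65 (SE 0.02, adjusted p = 2.58e-06) against KD, with -0.10 (adjusted p = 0.475) in KD. In OE the level per length was thus 3.29 ± 0.0181 CPM per kb for Adamts3 and 2.45 ± 0.16 CPM per kb for Adamts2.

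**Figure D4:**
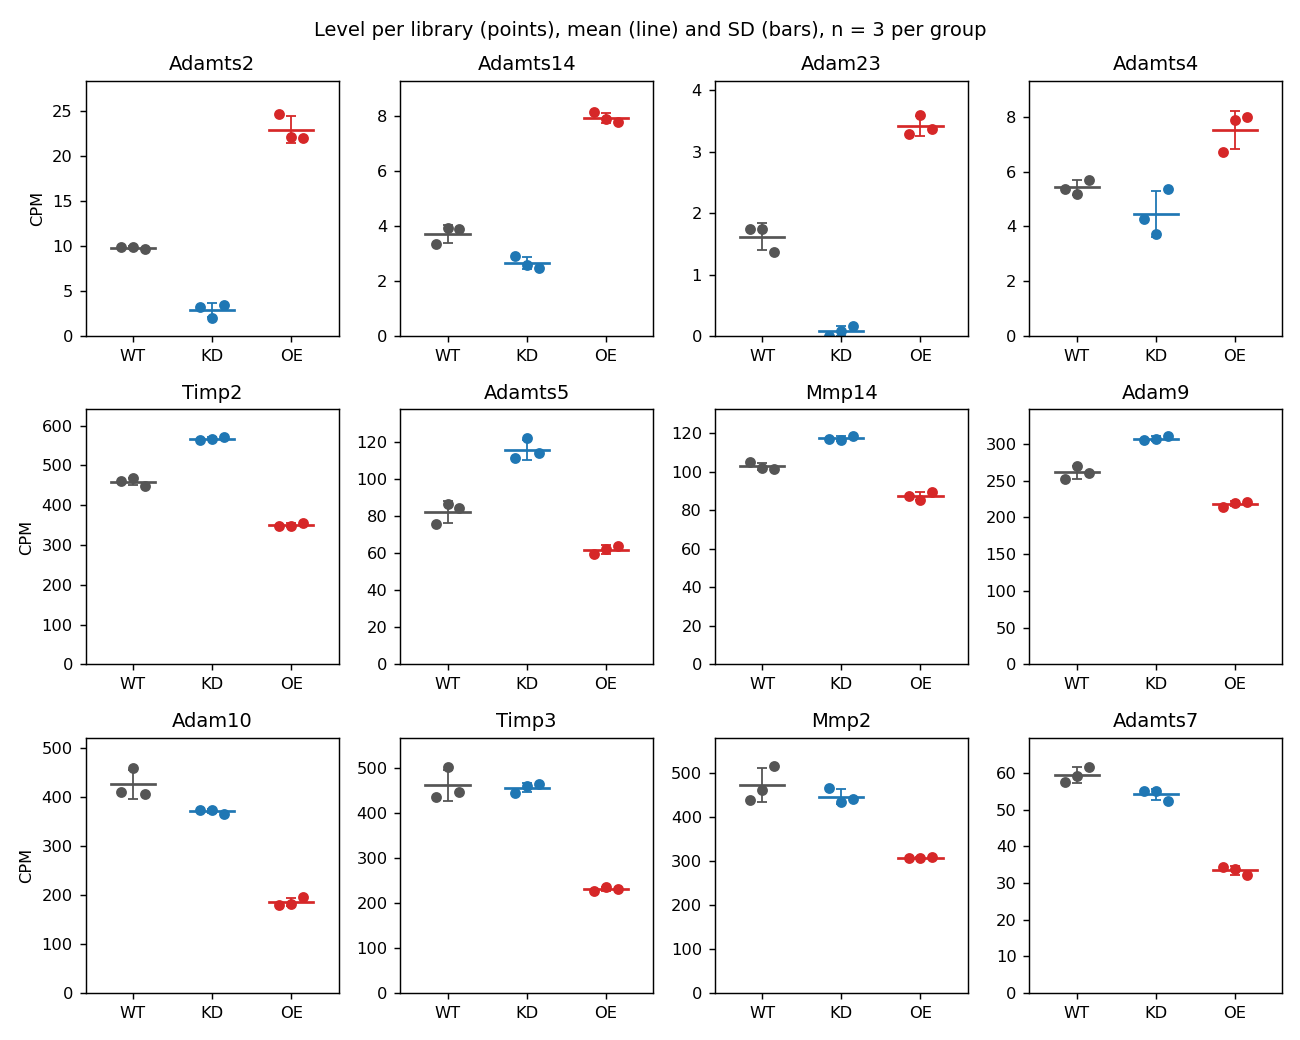
CPM of 12 members in each library (points), with the mean (line) and SD (bars) of 3 libraries per group and axes from 0. Adamts2, Adamts14 and Adam23 were ordered KD, WT, OE from low to high, Timp2, Adamts5, Mmp14 and Adam9 were ordered OE, WT, KD, and Adam10, Timp3, Mmp2 and Adamts7 were lowest in OE.

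The ADAMTS proteoglycanases, which cut versican and aggrecan, also differed among themselves. Adamts5 stood at 75.6, 86.5 and 84.4 CPM in WT, 111, 122 and 114 in KD and 59.3, 62.3 and 64.1 in OE. KD lay above and OE below WT, with no overlap. Its log2 fold change was 0.49 (SE 0.07, adjusted p = 1.13e-06) in KD, and -0.41 (SE 0.07, adjusted p = 4.32e-06) in OE against WT, and -0.90 (SE 0.05, adjusted p = 2.29e-11) in OE against KD. Adamts4, the other classical aggrecanase, ran the opposite way at 5.38, 5.19 and 5.71 CPM in WT, 4.27, 3.74 and 5.37 in KD and 6.74, 7.88 and 8 in OE, highest in OE. It rose in OE, with a log2 fold change of 0.48 (SE 0.09, adjusted p = 0.00824) against WT and 0.75 (SE 0.17, adjusted p = 0.000125) against KD, and KD against WT gave a log2 fold change of -0.28 (adjusted p = 0.18). Adamts9, which cuts versican and is known from heart and vessel development, stood at 56, 62.5 and 62.4 CPM in WT, 68.3, 72.9 and 67.8 in KD and 67.7, 73.9 and 77.7 in OE. It rose in KD (log2 fold change 0.21, adjusted p = 0.0138) and in OE (log2 fold change 0.28, adjusted p = 0.000719), with 0.07 (adjusted p = 0.369) between them; the KD call was lost without WT replicate 1 (adjusted p = 0.0763), without KD replicate 2 (0.106) or with library totals alone (0.15). Adamts1, the most expressed ADAMTS gene per length, did not pass in any comparison, with means of 97.3 ± 6.51 CPM (SD, n = 3) for WT, 96.2 ± 3.85 CPM for KD and 91.1 ± 3.91 CPM for OE. With window medians removed, or without WT replicate 1, it passed as lower in OE, at -0.18 and -0.15.

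The other tested ADAMTS genes were lower in OE. Adamts7, which cuts cartilage oligomeric matrix protein and is linked to vascular disease, stood at 57.5, 59.1 and 61.8 CPM in WT, 55, 55 and 52.5 in KD and 34.4, 33.8 and 32.1 in OE. Every OE library lay below all others. It fell, with a log2 fold change of -0.83 (SE 0.04, adjusted p = 9.49e-11) against WT and -0.69 (SE 0.04, adjusted p = 8.45e-10) against KD, and KD against WT gave a log2 fold change of -0.14 (adjusted p = 0.0706), which passed with upper-quartile factors (-0.16) or window medians removed (-0.21). Adamts7 shares 122 exon bases with Tbc1d2b on the opposite strand. Adamts10, which acts on fibrillin microfibrils, stood at 26.3, 24.8 and 28.2 CPM in WT, 25.2, 20.2 and 22.4 in KD and 21.2, 19.9 and 14.3 in OE and fell in OE against WT (log2 fold change -0.52, adjusted p = 0.00675), a call lost without WT replicate 3 (adjusted p = 0.0689). Its KD and OE libraries overlapped, at -0.29 (adjusted p = 0.0886); DESeq2, limma-voom and several other settings called that difference. Adamts16 was rare, with 26, 46 and 47 counts in WT, 56, 26 and 34 in KD and 6, 8 and 8 in OE, and fell, with a log2 fold change of -2.41 (SE 0.21, adjusted p = 7.89e-05) against WT and -2.39 (SE 0.26, adjusted p = 6.48e-05) against KD. Its 20 Mb window on chromosome 13 had medians of -0.42 and -0.55 in these comparisons, and with them removed Adamts16 was at -2.00 and -1.83. Adamts6, outside the naming rule, fell, with a log2 fold change of -0.85 (adjusted p = 0.000133) against WT, with -0.26 as the median of its window on chromosome 13.

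Genes that act on these proteases were called in both directions. Of 31 regulators (proprotein convertases, rhomboid and tetraspanin partners, plasminogen activators, ADAMTS-like proteins and others), 25 were tested: 4 were higher and 7 lower in KD, 2 higher and 11 lower in OE against WT, and 6 higher and 11 lower in OE against KD. Over all tested genes the shares higher and lower were 11% and 10.4% in KD, 17% and 19.5% in OE, and 19.4% and 22.1% in OE against KD. The list's median log2 fold changes were -0.028, -0.085 and -0.10, where those over all genes were near 0 as given above. By the rule of the smallest p, Plaur, the urokinase receptor that focuses plasmin at the cell surface, is given for KD: it stood at 39.9, 34.1 and 37.3 CPM in WT, 48.5, 47.4 and 47.5 in KD and 37.7, 35 and 36.5 in OE and rose, with a log2 fold change of 0.37 (SE 0.07, adjusted p = 0.000135) in KD, with -0.03 (adjusted p = 0.795) in OE. Plat, the tissue plasminogen activator, is given for OE, where it stood lowest at 56.5, 58.6 and 65.4 CPM in WT, 52.3, 51.7 and 51.4 in KD and 22.5, 23.3 and 22.4 in OE. It fell, with a log2 fold change of -1.40 (SE 0.07, adjusted p = 1.52e-13) in OE against WT, -1.19 (SE 0.02, adjusted p = 1.16e-12) against KD and -0.22 (adjusted p = 0.0088) in KD.

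Of 36 surface proteins known to be shed by these enzymes, 27 were tested: 2 were higher and 9 lower in KD, 4 higher and 13 lower in OE, and 9 higher and 12 lower in OE against KD (backgrounds of 11% and 10.4%, 17% and 19.5%, and 19.4% and 22.1%). The list's medians were -0.15, -0.10 and -0.15, beside -0.0022, 0.0020 and 0.011 over all tested genes. Flt1, the VEGF receptor that also exists as a soluble decoy, stood at 17.3, 17.3 and 17 CPM in WT, 11.9, 11.2 and 13.2 in KD and 20.1, 23.2 and 22.3 in OE, lowest in KD and highest in OE. Its log2 fold change was -0.51 (SE 0.07, adjusted p = 0.000109) in KD, and 0.35 (SE 0.06, adjusted p = 0.00151) in OE against WT. In the same test OE against KD gave 0.85 (SE 0.09, adjusted p = 2.18e-08). Vcam1, a leukocyte adhesion molecule that Adam17 sheds, stood at 69.1, 79.6 and 69.3 CPM in WT, 73.3, 74.3 and 76 in KD and 25.6, 24.7 and 23.5 in OE and fell in OE, with a log2 fold change of -1.56 (SE 0.08, adjusted p = 2.87e-14) against WT and -1.60 (SE 0.04, adjusted p = 1.41e-14) against KD, with 0.03 (adjusted p = 0.739) in KD.

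Of 26 matrix substrates, 20 were tested: 3 were higher and 4 lower in KD, 1 higher and 12 lower in OE, and 4 higher and 13 lower in OE against KD, where the backgrounds were again 11% and 10.4%, 17% and 19.5%, and 19.4% and 22.1%. Its medians were -0.060, -0.41 and -0.57, beside the same all-gene medians. Col3a1, a fibrillar collagen whose propeptide Adamts2 and its relatives remove, stood at 2984, 3169 and 3282 CPM in WT, 3256, 3194 and 3264 in KD and 1036, 1063 and 1053 in OE. Every OE library lay lowest. It fell, with a log2 fold change of -1.58 (SE 0.04, adjusted p = 3.09e-17) against WT and -1.62 (SE 0.01, adjusted p = 1.16e-17) against KD, with 0.04 (adjusted p = 0.5) in KD. Col1a1, Col1a2, Col3a1 and Dcn are on both the matrix list and the fibroblast and mural marker list, whose summed level was lower in OE. Col3a1 is itself part of that sum, with means of 3145 CPM in WT and 1051 in OE, beside 5259 and 4032 for Col1a1. The lower sum and the lower Col3a1 are therefore partly the same values. Whether the lower Timp3, Mmp2 and Col3a1 values go with the other markers of that list was not tested. Nid2, a basement membrane linker, stood at 10.8, 13.5 and 14.9 CPM in WT, 0.278, 0.352 and 0.123 in KD and 16.4, 16.4 and 16.7 in OE and was nearly absent from KD, with a log2 fold change of -5.72 (SE 0.40, adjusted p = 5.09e-14) against WT. In the same test Nid2 was at 6.06 (SE 0.38, adjusted p = 2.77e-15) in OE against KD. Its OE value of 0.34 (adjusted p = 0.0301) against WT was not firm: it was lost without WT replicate 1 (0.22, adjusted p = 0.167) or any 1 OE library (adjusted p 0.079 to 0.0833), with library totals alone and with window medians removed.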

How the data were processed

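Poly-A RNA of 9 MCEC libraries was sequenced. The table the authors deposited holds raw counts of each gene in each library, as its whole numbers show. Builds GRCm38 and mm10 are named in the submitters' processing notes; the aligner, counting program, annotation and use of strand are not given in the sources used here. Each library matched 1 column by name. The table has 55774 rows, on which 168 genes recur with identical counts (455 rows), and each gene was counted once. The rule was applied to symbol and biotype; 1 gene that matched by symbol was a polymorphic pseudogene and was left out, and Adam34, present on more than 1 row, was counted once. Positions and exon lengths (union of exons) came from GENCODE M21 (GRCm38), which held all 79 members.

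Counts were filtered with filterByExpr by group (16955 genes), scaled with TMM and fitted over the 9 libraries with edgeR 4.0.16 (robust quasi-likelihood, group as the only term; limma 3.58.1, DESeq2 1.42.0 and R 4.3.3 for alternatives). Benjamini-Hochberg adjustment ran over all tested genes, with a threshold of 0.05. Each SE combines the groups' SDs on the log2 CPM scale, prior count 2. Intervals of this kind cover the spread between libraries, and the limit of 3 counts for a count of 0 covers counting error only. Depth ran from 39491828 to 55745849 counts per library. Replicates differed by 2.98 to 11.4 times the sampling noise (median over genes), so no library was treated as a repeat. The WT pairs differed most, at 8.20 to 11.4, with 2.98 to 3.87 in KD and 3.00 to 5.50 in OE. For each gene the fit used the same estimate of spread in all groups. Same-numbered libraries did not deviate together, with correlations of -0.042 to 0.049, so the numbers were not taken to pair samples. The fit was also run on simulated counts, with the same spread in every group and changes in KD only. Those settings differ from these data, so that run does not show how the fit performs here.

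Members and lists were chosen with earlier results of these data known. Named members were the 4 Timp genes, members with at least 5 CPM in a group, members called with at least a 2-fold difference and the 4 smallest p of each comparison, and from each list the gene with the smallest p. Alternatives were other scalings, count filters, tools and samples, a test against a 1.5-fold minimum, a block for the replicate number, removal of medians of 20 Mb windows with at least 10 tested genes and leaving out each library. Promoter windows came from RefSeq on GRCm38.p6. The overlap of 1 member with a neighbouring gene is not reported here.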

Additional observations from a re-analysis of the deposited data

How the results depend on the processing

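Over 20 alternatives to the scaling, filter, tool, samples and design, the named genes kept their side of the threshold in 1871 of 1965 comparisons; 81 calls were lost, 43 of them to a minimum fold change of 1.5, and 13 were gained. Among those 1871, signs changed in 31 comparisons, in each of which the gene passed neither test. With a minimum fold change of 1.5, 3 members were called in KD, 6 in OE and 9 in OE against KD, fewer by construction, and Zbtb46 in KD, at -0.28, no longer passed. Leaving out each library gave 10 to 13 members in KD, 23 to 28 in OE and 20 to 23 in OE against KD. Replicate numbers did not mark pairs: with the replicate block, 12, 27 and 20 members were called. On CPM not divided by length the summed TIMP over MMP level came to 1.55 (WT), 1.76 (KD) and 1.38 (OE), against 1.43, 1.67 and 1.46 per length, because genes of different length are weighted differently. Mmp9, Mmp3 and Adam33 had at most 103 counts in a library, and their calls were lost when single libraries were left out.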

Other observations

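Some relatives and partners of the proteases, picked from the 31 regulators after their values were seen, had larger differences than most members. Adamtsl3, an ADAMTS-like protein without protease activity, stood at 2.21, 3.09 and 3.33 CPM in WT, 3.91, 3.67 and 4.42 in KD and 0.128, 0.162 and 0.0445 in OE, a log2 fold change of -4.65 (SE 0.41, adjusted p = 2.05e-10) in OE against WT (edgeR's quasi-likelihood test, Benjamini-Hochberg adjusted). The proprotein convertases that can activate MMPs and ADAMs inside the cell were also lower in OE against WT. The log2 fold changes were -1.06 (adjusted p = 1.21e-11) for Pcsk5 and -0.81 (adjusted p = 2.66e-06) for Pcsk6. They were -0.58 (adjusted p = 7.7e-08) for Pcsk7 and -0.38 (adjusted p = 1.62e-06) for Furin. The tested genes in the chromosome window of Pcsk7 had a median of -0.41 in the same comparison. The window medians of Pcsk5, Pcsk6 and Furin were -0.018, 0.025 and 0.018. How much of the Pcsk7 value is shared with its window was not tested. Reck, a membrane-anchored inhibitor of MMPs, stood at 11.1, 11.1 and 12.6 CPM in WT, 12.8, 14.7 and 12.5 in KD and 5.24, 6.52 and 6.51 in OE and fell in OE, as the tested TIMPs did, with a log2 fold change of -0.93 (SE 0.12, adjusted p = 6.64e-07). Rhbdf2, which escorts Adam17 to the cell surface, was higher in OE at 23.5, 24.6 and 27.1 CPM in WT, 23.1, 26.1 and 21.2 in KD and 49.5, 47.2 and 45.9 in OE, a log2 fold change of 0.92 (SE 0.07, adjusted p = 2.43e-09), while Adam17 itself did not pass. Rhbdf1, its paralog, had a log2 fold change of 0.09 (adjusted p = 0.38). In the same test OE against KD gave -5.12 (adjusted p = 1.74e-11) for Adamtsl3, -1.13 (adjusted p = 2.48e-08) for Reck and 1.02 (adjusted p = 3.04e-10) for Rhbdf2.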
